A study of Mus musculus with 12 samples.

Results

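The spinal cord of control mice with experimental autoimmune encephalomyelitis (EAE) was compared with that of control mice without disease, from RNA sequencing of 3 libraries on each side. The control mice were labelled wt, as littermates of Drd2 cKO mice, which carry a conditional deletion of Drd2 under the label mGFAP and form the other 6 of the 12 libraries. All mice were C57BL/6 and 2 to 3 months old, the tissue was spinal cord, and total RNA was taken. The EAE libraries (control EAE 1, 2 and 3) came from day 17, which the design text calls the peak of disease, and the libraries without disease are called control basal 1, 2 and 3. Each library was labelled a biological replicate of its own. The labels give no immunizing antigen, clinical score or dissected level of the cord. Genes of the X and Y chromosomes were left out of every count and description, which left 50348 of the 54532 genes in the table. Of these, 17279 had enough counts to be tested.

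EAE is an inflammatory disease of the central nervous system that is set off by immunizing animals against myelin proteins, and it serves as a model of multiple sclerosis. T cells that recognise myelin enter the cord, meet antigen on MHC class II molecules, and release cytokines that draw in monocytes and neutrophils. Microglia and astrocytes respond, myelin and axons are damaged, and paralysis follows.

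The 6 libraries held 15543999 to 17592105 counts, so that 1 count in the shallowest was worth 0.0643 CPM (counts scaled to the same library total). Levels below are CPM after TMM scaling, and a gene is said to have risen or fallen where edgeR's quasi-likelihood test gave a Benjamini-Hochberg adjusted p below 0.05. Each fold change is EAE over basal on the log2 scale, with its standard error (SE). Positions of genes are those of the deposited table, in mm10. RNA of sex-linked genes differed between the sides. Xist, an RNA that coats the silenced X chromosome in female cells, was at 324 to 606 CPM in the basal libraries and at 0.0599 to 0.119 CPM in the EAE libraries, and the Y-linked gene Ddx3y was at 0 CPM in the basal and at 71.5 to 72.7 CPM in the EAE libraries. EAE and sex therefore cannot be told apart in this comparison, also for genes outside X and Y. Control basal 1 had a smaller share of long transcripts than control basal 2 and 3. Each library was set against the others of its group, and the median log2 deviation of protein-coding genes under 1500 bases was taken from that of genes over 6000 bases. This difference was -0.77 in control basal 1, 0.40 and 0.41 in control basal 2 and 3, and -0.18 to 0.11 in the EAE libraries.

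The markers of the tissue were present. Hox genes of the cord, neuronal, myelin and astrocyte genes had counts in every library, as described below. The forebrain genes Emx1 and Tbr1, the muscle genes Myh1, Myh2 and Ckm, the fat gene Adipoq and the dorsal root ganglion genes Scn10a and Trpv1 had too few counts to be tested. The tested genes of these other tissues were few, and none was called higher. Of 12 skeletal muscle genes 4 were tested and 2 fell, Acta1, at 1.96, 1.14 and 1.14 CPM in control basal 1, 2 and 3 and 0.533, 0.547 and 0.419 CPM in control EAE 1, 2 and 3, and Pvalb, which neurons also express and which made up most of the list's summed level. The call of Acta1 ended without control EAE 3 (adjusted p = 0.052). The sum was 133, 79.4 and 81.9 CPM in the basal and 42.8, 42.2 and 38.5 CPM in the EAE libraries. Of 9 forebrain genes 3 were tested and Neurod6 fell (-1.12), and of 8 fat and bone genes 2 were tested and Alpl fell (-1.01). The part of such tissue in other results was not tested. Drd2 (ENSMUSG00000032259, chromosome 9, 49340627 to 49408177, plus strand), intact by label in these mice, was at 27.2, 19.9 and 20.3 CPM in control basal 1, 2 and 3 and at 9.12, 9.24 and 9.89 CPM in control EAE 1, 2 and 3. The EAE values lay below all basal values (log2 fold change -1.25, SE 0.16, adjusted p = 0.00024).

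Between basal and EAE cord, 7829 of the 17279 genes tested changed (45.3%). Of these, 4233 were higher in EAE (24.5% of genes tested) and 3596 lower (20.8%). In 7744 of the 7829 the libraries of both sides did not overlap. That count was taken only among genes that passed the test, so it is no separate support for them. The share over all genes tested is not given here. The rises were larger than the falls. The median log2 fold change was 1.34 among the genes that rose and -0.74 among those that fell, against -0.0032 over all genes tested. A rise of at least 16-fold was estimated for 692 genes, and no gene that passed was estimated to have fallen by that much. Only 32 of those that fell were estimated at 4-fold or more. Many of the rising genes started from almost nothing, as 966 had a basal mean under 1 CPM and 67 had 0 counts in the 3 basal libraries. The 692 genes took 0.122 to 0.135% of all counts in the basal libraries and 4.44 to 6.16% in the EAE libraries. The 3596 falling genes went from 40.2 to 40.7% of all counts to 22.8 to 25.7%. By biotype, 26.7% of protein-coding genes rose and 22.7% fell, against 12 and 16.2% of lincRNAs and 9.69 and 10.2% of antisense genes. The classes were not matched for level, so a weaker response of a class cannot be read from these shares. With all 12 libraries in 1 fit, 3065 genes passed (2182 higher, 883 lower), and 8342 passed when cKO basal 2 and cKO EAE 3 were left out of that fit. A test against a minimum of a 2-fold change called 1936 genes, 1850 of them higher, and without control basal 1 the count was 9513.

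**Figure D1:**
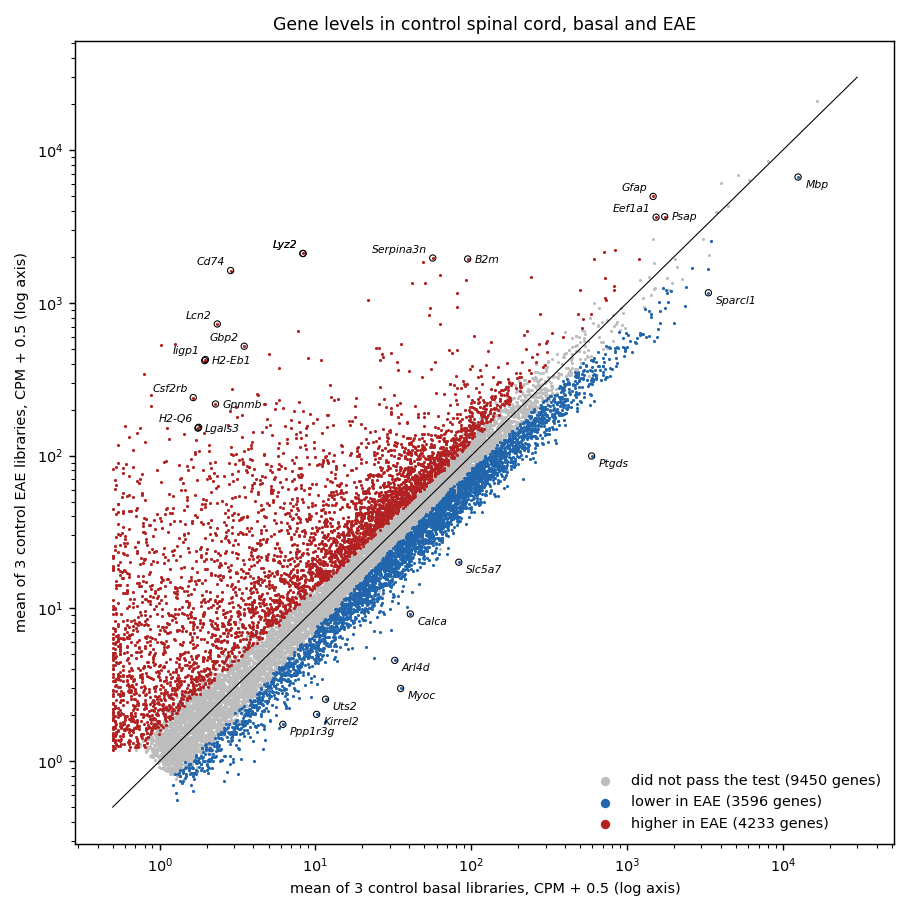
Mean level of each of the 17279 genes tested in the 3 control basal libraries (x axis) and the 3 control EAE libraries (y axis), in CPM plus 0.5 on log axes, with genes that rose in red (4233), genes that fell in blue (3596) and the rest in grey. The red points reach far from the diagonal at low basal levels, as for Cd74, Lcn2 and Iigp1, while the blue points stay closer to it, with Myoc and Arl4d farthest among the genes named.

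The 10 largest rises among genes with at least 1 CPM at baseline were in genes of antigen presentation, interferon response and phagocytes. Cd74, the invariant chain that escorts MHC class II molecules, was at 2.81, 3.18 and 1.08 CPM in control basal 1, 2 and 3. In control EAE 1, 2 and 3 it was at 2809.6, 1158 and 913 CPM (log2 fold change 9.43, SE 0.61, adjusted p = 2.1e-06). Every EAE library was far above the basal libraries, and control EAE 1 was well above the other EAE libraries. Lcn2 (ENSMUSG00000026822, chromosome 2, 32384633 to 32388252, minus strand), which encodes lipocalin 2, a protein that binds bacterial iron carriers and is made by reactive astrocytes and neutrophils, went from 3.26, 1.93 and 0.341 CPM to 640.2, 779.8 and 761 CPM and was even across the EAE libraries (log2 fold change 8.65, SE 0.51). The others were H2-Eb1 (8.19), the interferon-induced GTPase genes Iigp1 (8.16) and Gbp2 (7.45), the lysozyme gene Lyz2 (8.08), the cytokine receptor subunit gene Csf2rb (7.68), the phagocyte genes Gpnmb (6.92) and Lgals3 (6.92), and the MHC class I gene H2-Q6 (6.92), each given as its log2 fold change. Csf2rb and H2-Q6 have near-identical copies in the genome (Csf2rb2 and H2-Q7), between which reads may have been split. In absolute terms the largest gain was in Gfap, the astrocyte filament gene, followed by Eef1a1, Lyz2, Psap, Serpina3n, B2m, Fn1, Cd74, Ctss and Ctsb. Their gains stood for translation elongation (Eef1a1), lysosomal proteins (Psap, Ctss, Ctsb), an acute phase protease inhibitor (Serpina3n), the light chain of MHC class I (B2m) and fibronectin (Fn1).

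The smallest p-values belonged to Arg1, Clec7a and Fcgr2b, each with an adjusted p of 5.5e-08. Arg1 (ENSMUSG00000019987, chromosome 10, 24915221 to 24927484, minus strand), the arginase of alternatively activated macrophages, was at 0.326, 0.341 and 0.227 CPM in control basal 1, 2 and 3 and at 398, 294 and 327 CPM in control EAE 1, 2 and 3. The fungal lectin receptor gene Clec7a (ENSMUSG00000079293, chromosome 6, 129461591 to 129472779, minus strand) went from 0.392, 0.398 and 0.341 to 218, 234 and 296 CPM. Fcgr2b, the inhibitory receptor for IgG, went from 2.48, 2.16 and 2.56 to 306, 248 and 266 CPM. In these genes the EAE libraries were close to each other and the basal libraries near 0 or a few CPM. Rac2, Ccl6, Slc15a3, Csf2rb2 and Ifi30 came next.

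The 12 largest falls were of another kind. Myoc (ENSMUSG00000026697, chromosome 1, 162639155 to 162649693, plus strand), myocilin, was at 45.9, 30.3 and 28 CPM at baseline and at 1.6, 3.83 and 2.04 CPM in EAE (log2 fold change -3.80, SE 0.32, adjusted p = 1.2e-05). Ptgds, the prostaglandin D synthase of meninges and oligodendrocytes, went from 660.1, 609.7 and 507 to 133, 104 and 59.6 CPM (-2.58, SE 0.27). All EAE values of both genes lay below all basal values. The motor neuron genes Uts2 (-2.44), Calca (-2.21), Slc5a7 (-2.08) and Chodl (-1.97) were among them, as were Gli1 (-2.07), a target of hedgehog signalling, the Wnt antagonist gene Sfrp5 (-2.03), the D-amino acid oxidase gene Dao (-1.96), Arl4d (-2.97), Kirrel2 (-2.66) and Ppp1r3g (-2.19), all as log2 fold changes. Among the largest losses in CPM were those of Mbp, Sparcl1, Snap25, Nefm, Nefh and Ckb. Ckb had an adjusted p of 0.017, and 0.052 and 0.057 without control EAE 2 and without control EAE 3.

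Groups of genes that mark cell types, pathways or complexes were then counted. In the plot of list members, 73 lists with at least 5 tested members are set beside the background of 24.5% higher and 20.8% lower. Since the tissue was sequenced whole, a higher or lower level may stand for more or fewer cells of a type or for more or less RNA in each. Levels are also relative to the rest of a library. The 4233 rising genes took 10.8 to 11.1% of all counts in the basal libraries and 26.2 to 29.7% in the EAE libraries. A gene may thus be lower in CPM because other genes took more of the counts. These readings cannot be told apart.

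**Figure D2:**
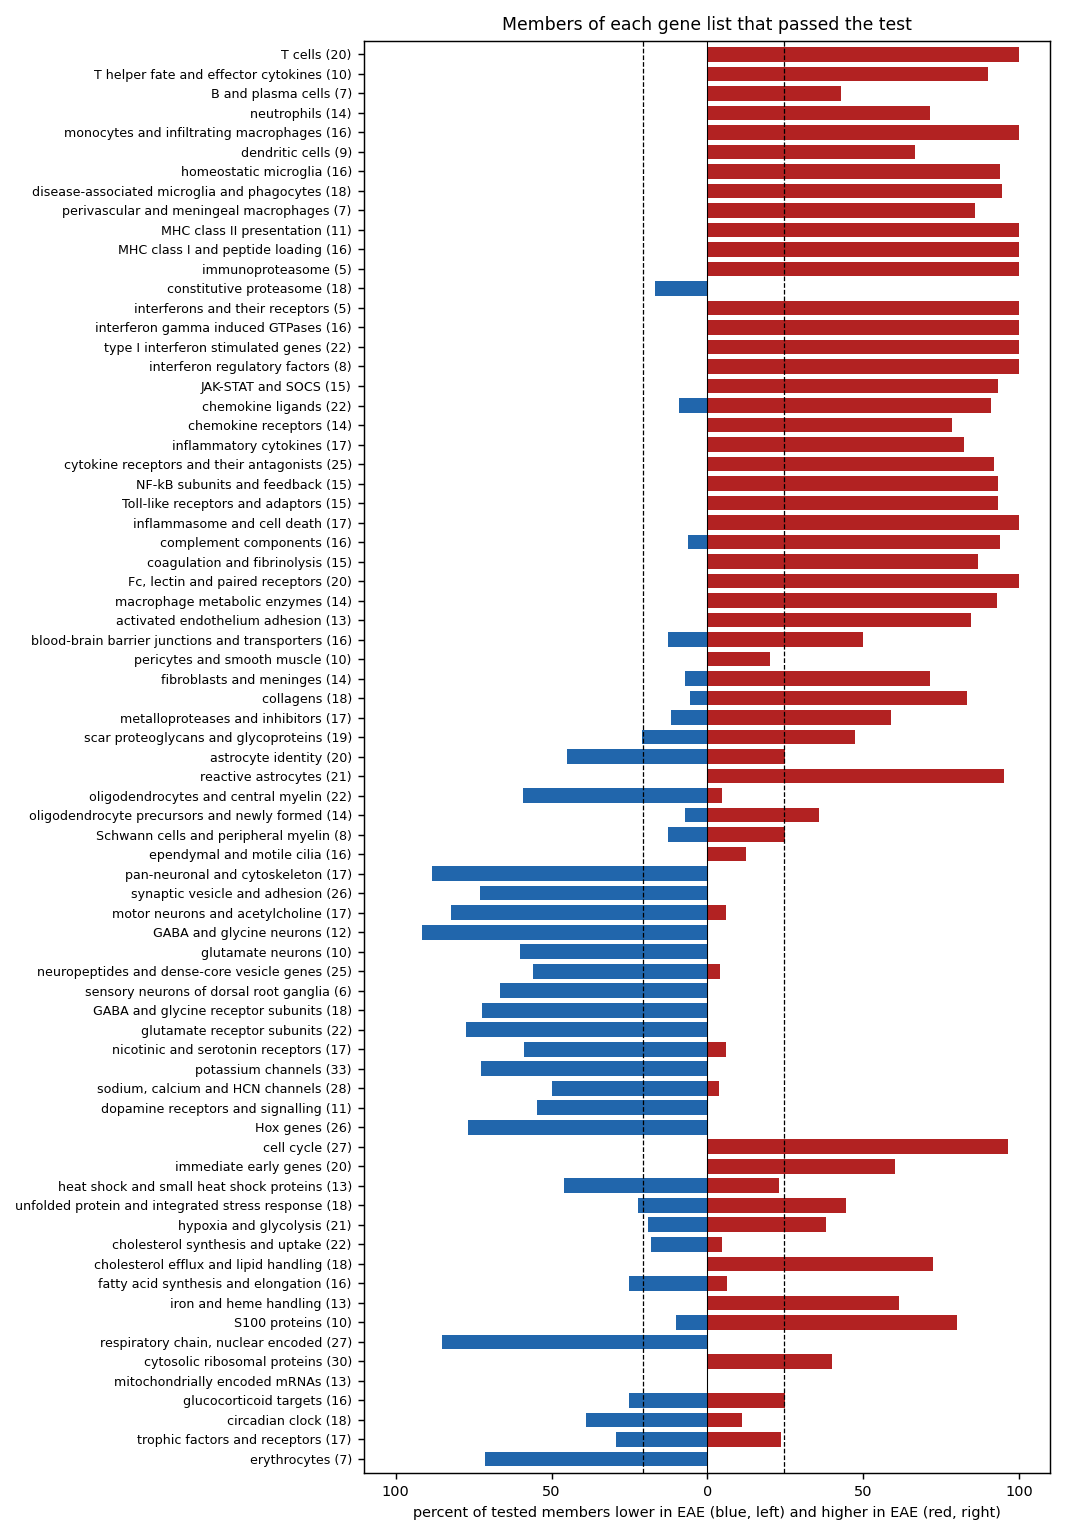
Percent of the tested members of each gene list that were lower (blue bars, left) and higher (red bars, right) in EAE, with the number of tested members in parentheses and dashed lines at the percentages over all genes tested (20.8% lower, 24.5% higher). Lists of T cells, monocytes, antigen presentation and interferon response reach 100% higher, while lists of neurons, ion channels, Hox genes and the respiratory chain lie on the left with at most 1 member higher.

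T cell genes rose in full, 20 of 20 tested, with a median log2 fold change of 6.62 (6.21 with the genes at 0 basal counts set to their lower bounds). Cd3e, a chain of the T cell receptor complex (ENSMUSG00000032093, chromosome 9, 44998740 to 45009627, minus strand), was at 0, 0 and 0.398 CPM in control basal 1, 2 and 3 and at 8.35, 9.54 and 11.9 CPM in control EAE 1, 2 and 3 (log2 fold change 6.09, SE 0.60). Control basal 3 was the only basal library with counts of Cd3e, 7 in all. The helper cell coreceptor gene Cd4, which macrophages also express, went from 0, 0.17 and 0.114 to 31.8, 23.5 and 23.6 CPM. The survival cytokine receptor gene Il7r went from a mean of 0.529 ± 0.278 to 33.2 ± 2.48 CPM (SD, n = 3), and the receptor kinase gene Lck from 0.927 ± 0.238 to 18.1 ± 0.558 CPM. Each of these was higher in every EAE library than in any basal library.

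Of genes that mark T helper fates and effector function, 9 of 10 rose. Ifng, interferon gamma, had 1 count in the 3 basal libraries and was at 1.36, 1.09 and 1.56 CPM in EAE, a ratio of 67.7 (95% exact Poisson interval 12.1 to 2673). The checkpoint receptor gene Lag3 went from 4.0 ± 0.62 to 43.8 ± 8.6 CPM, Tnfrsf9 from 0.144 ± 0.133 to 19.6 ± 5.93 CPM, and Tnfrsf4 from 0.89 ± 0.364 to 7.12 ± 1.47 CPM. These encode costimulatory or inhibitory receptors of activated T cells. Il17a, Csf2, Il21, Il2, Il10 and Il23r had too few counts to be tested, so that nothing can be said of them at this depth.

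B cell genes were scarce. 3 of 7 tested members rose, Cd79b, Igkc and Sdc1, and Ms4a1 and Cd79a could not be tested. Sdc1, the most abundant of the 3 in EAE, is also made by other cells, and went from 2.18 ± 0.548 to 29.5 ± 9.91 CPM. All 3 tested natural killer genes, Klrk1, Klrd1 and Nkg7, rose. Klrk1 had 0 basal counts and was at least 91.9-fold higher, against a floor of 3 counts over the basal group.

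The 16 genes of monocytes and infiltrating macrophages rose without exception (median 7.57, and 7.22 with bounds). The chemokine receptor gene Ccr2, which carries monocytes out of the bone marrow, went from 0.261, 0.0568 and 0 CPM to 95.8, 68.9 and 100.1 CPM. Plac8 went from 0.0814 ± 0.071 to 41.6 ± 12.2 CPM and Thbs1, thrombospondin, from 6.59 ± 0.332 to 78.6 ± 14.1 CPM. The summed level of the list was 84.4, 127 and 115 CPM in control basal 1, 2 and 3 and 7173, 4667 and 4094 CPM in control EAE 1, 2 and 3. Neutrophil genes rose in 10 of 14, with the growth factor receptor gene Csf3r at 129 ± 29 CPM in EAE against 7.61 ± 1.45, and Mmp8, Cxcr2 and Il1r2 at 18.9 ± 8.14, 6.91 ± 3.65 and 6.48 ± 1.82 CPM against basal means under 1 CPM. Camp, Mpo, Elane and Mmp9 did not pass. In the fit of all 12 libraries 5 neutrophil genes passed. The dendritic cell list gave 6 of 9. Itgax, which is also an activation marker of microglia, went from 0.138 ± 0.0856 to 72.8 ± 9.98 CPM, and Ccr7, the receptor that guides dendritic and T cells to lymph nodes, had 0 basal counts and was at least 309-fold higher. Flt3, Zbtb46 and Fscn1 did not pass. Red cell genes went the other way. The hemoglobin gene Hba-a1 was at 28.8, 36.1 and 4.72 CPM in control basal 1, 2 and 3 and at 3.5, 3.4 and 5.81 CPM in EAE, where control basal 3 lay among the EAE values. Of the red cell list 5 of 7 fell, and 3 when control basal 2, control EAE 1 or control EAE 2 was left out.

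Antigen presentation rose as a whole. In the MHC class II list 11 of 11 genes rose (median 5.02). The alpha chain gene H2-Aa went from 0.783, 0.682 and 0.114 CPM to 909, 383 and 285 CPM, and the beta chain gene H2-Ab1 from 0.914, 0.966 and 0.398 CPM to 927, 368 and 312 CPM. Control EAE 1 was the highest library for both, at over the sum of the other EAE libraries, and the basal libraries stayed under 1 CPM. The peptide exchange gene H2-DMa rose from 6.54 ± 0.619 to 93.8 ± 32.4 CPM. In the MHC class I list 16 of 16 rose (median 4.16). Tap1, a subunit of the pump that carries peptides into the endoplasmic reticulum (ENSMUSG00000037321, chromosome 17, 34187553 to 34197225, plus strand), went from 4.57, 2.9 and 3.81 to 321, 194 and 236 CPM, and Nlrc5, the transactivator of class I genes, from 2.89 ± 1.16 to 184 ± 30.1 CPM. H2-Q4 and H2-Q7 rose by 5.70 and 6.60 on the log2 scale.

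The proteasome split by subunit type. All 5 immunoproteasome genes, whose products replace catalytic subunits or cap the particle during interferon response, rose (median 2.38). Psmb8 went from 2.28, 1.36 and 1.59 to 104, 57.5 and 68.6 CPM and Psmb9 from 2.35, 1.7 and 0.625 to 97.6, 60 and 61.7 CPM. Psme1 and Psme2, the activator cap, rose by 2.38 and 2.07. Of 18 genes of the constitutive particle none rose and 3 fell with edgeR (limma voom called 5 higher), Psmc1 (-0.72), Psmb7 (-0.59) and Psmb5 (-0.45), with a median of -0.15. The share that fell was under the 20.8% of all genes tested. Immunoproteasome forms replace Psmb5, Psmb6 and Psmb7, of which Psmb6 did not pass (-0.26). Without control basal 1, 5 constitutive genes rose, the median was 0.09 and Psmb5 stood at -0.25 (adjusted p = 0.030). Leaving out any EAE library ended the call of Psmb5 (adjusted p = 0.086 to 0.13).

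Interferon receptors and signalling genes rose too. Ifngr1 went from 18.7 ± 2.43 to 98.6 ± 8.68 CPM, Ifnar2 from 12.7 ± 1.43 to 51.6 ± 11.3 CPM and Ifnar1 from 36.3 ± 5.26 to 106 ± 14 CPM, while the type I genes Ifnb1 and Ifna4 had too few counts to be tested. Interferon regulatory factors rose in 8 of 8, among them Irf7 (log2 fold change 5.58), Irf8 (5.14), Irf5 (4.26) and Irf9 (2.55). Of JAK, STAT and SOCS genes, 14 of 15 rose, Jak1 being the one that did not pass. The feedback inhibitor gene Socs3 went from 0.979, 0.852 and 1.76 CPM to 84.5, 86.2 and 144 CPM, and Socs1 from 1.33 ± 0.271 to 21.3 ± 5.43 CPM.

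The GTPases induced by interferon gamma, which attack membranes around intracellular microbes, rose in 16 of 16 (median 6.50). Iigp1 went from 1.11, 1.93 and 1.36 CPM to 570.2, 316 and 389 CPM, Gbp5 (ENSMUSG00000105504, chromosome 3, 142493978 to 142522344, plus strand) from 2.74, 2.9 and 2.16 to 261, 153 and 214 CPM, and Irgm1 from 10.3 ± 1.02 to 422 ± 103 CPM. The basal libraries were low and alike, and control EAE 2 was the lowest EAE library for the summed list (4543, 2431 and 3032 CPM in control EAE 1, 2 and 3 against 43.7, 42 and 44.1 CPM in control basal 1, 2 and 3). Tgtp1 and Tgtp2 in this list are near-identical copies, and their split is uncertain. Genes induced by type I interferon rose in 22 of 22 (median 4.51). Ifit3, which binds viral RNA complexes (ENSMUSG00000074896, chromosome 19, 34583531 to 34588731, plus strand), went from 9.92, 9.09 and 10.3 to 185, 132 and 205 CPM, Bst2, tetherin, from 3.44 ± 0.74 to 121 ± 28.5 CPM, and Oasl2 from 5.31 ± 1.18 to 231 ± 48.7 CPM.

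Promoter sequences are printed here because whole families of interferon, NF-kB and cell cycle genes moved together and textbook binding motifs are known for each. They come from RefSeq (build GRCm38.p6, coordinates as in mm10), as windows from 250 bases before to 50 bases after each start. Every window was searched on both strands for the interferon-stimulated response element (ISRE, GAAA, any 2 bases, GAAA), the gamma-activated site (GAS, TTC, any 3 bases, GAA), a kappa B site (GGG, any 2 bases, TTTCC) and the cell cycle homology region (CHR, TTTGAA), and a base could count in more than 1 motif. The lines below give, for each list, the 2 members with the smallest p that held a match before the start. Each is printed 5′ to 3′ on the strand of the gene, with up to 30 bases on either side of the match. Only the first match of the named motif is in capitals. Further matches, as in Bst2, Cxcl1 and Mki67, and those of other motifs stand in small letters.
Bst2 (ISRE, chr8:71537563-71537632, minus strand): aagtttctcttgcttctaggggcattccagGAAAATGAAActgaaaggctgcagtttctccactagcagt
Ifit3 (ISRE, chr19:34583343-34583412, plus strand): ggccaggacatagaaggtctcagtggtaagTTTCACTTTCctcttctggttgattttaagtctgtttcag
Gbp5 (ISRE, chr3:142496739-142496808, plus strand): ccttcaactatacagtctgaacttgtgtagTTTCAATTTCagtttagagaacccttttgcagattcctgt
Gbp3 (ISRE, chr3:142559969-142560038, plus strand): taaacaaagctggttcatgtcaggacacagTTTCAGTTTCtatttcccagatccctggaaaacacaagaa
Gbp5 (GAS, chr3:142496684-142496727, plus strand): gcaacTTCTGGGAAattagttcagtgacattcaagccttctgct
Irgm2 (GAS, chr11:58214872-58214940, plus strand): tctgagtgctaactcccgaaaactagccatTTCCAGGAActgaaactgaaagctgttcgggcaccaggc
Irf8 (GAS, chr8:120736157-120736225, plus strand): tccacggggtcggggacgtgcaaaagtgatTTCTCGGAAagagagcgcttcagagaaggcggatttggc
Irf1 (GAS, chr11:53769894-53769962, plus strand): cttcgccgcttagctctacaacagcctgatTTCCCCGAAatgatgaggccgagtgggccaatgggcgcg
Ccl9 (kappa B, chr11:83578637-83578701, minus strand): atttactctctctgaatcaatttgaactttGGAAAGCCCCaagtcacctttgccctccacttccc
Cxcl1 (kappa B, chr5:90891126-90891195, plus strand): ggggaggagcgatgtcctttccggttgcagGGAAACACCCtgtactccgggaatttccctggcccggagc
Tnfaip3 (kappa B, chr10:19015411-19015452, minus strand): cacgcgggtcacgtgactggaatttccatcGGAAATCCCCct
Nfkb2 (kappa B, chr19:46304696-46304736, plus strand): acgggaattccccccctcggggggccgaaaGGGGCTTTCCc
Top2a (CHR, chr11:99024333-99024398, minus strand): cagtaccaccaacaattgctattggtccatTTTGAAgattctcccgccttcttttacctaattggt
Mki67 (CHR, chr7:135716460-135716525, minus strand): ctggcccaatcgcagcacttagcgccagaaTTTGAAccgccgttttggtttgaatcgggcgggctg

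The ISRE letters stood in 10 of the 16 type I interferon genes with a promoter entry and in 9 of 10 GTPase genes, against 3.99% of the 27025 genes in the promoter table. Among tested genes they stood in 6.59% of 3141 that rose, 3.46% of 2658 that fell and 2.78% of 6265 that did not pass. The GAS letters stood in 6 of 10 GTPase genes and 4 of 16 type I interferon genes, against 9.55% of all genes. All 6 of these GTPase genes, among them Gbp5 and Irgm2, also held the ISRE letters. The windows of Irgm2 and Igtp are near-identical around the matches, as are those of Tgtp1 and Tgtp2, so that the matches in these pairs are not separate observations. The kappa B letters stood in 4 of 18 chemokine ligands and 4 of 12 NF-kB genes, against 1.89% of all genes, 3.06% of genes that rose and 1.54% of those that fell. The CHR letters stood in 12 of 23 cell cycle genes, but also in 5 of 10 GTPase genes and 3 of 10 pan-neuronal genes, against 20.2% of all genes. MHC class II genes held the ISRE letters in 1 of 8 and the GAS letters in 1 of 8. These are matches of letters in 1 window, counted with no test, and say nothing of binding.

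Chemokine genes rose in 20 of 22 tested ligands. Cxcl10, which attracts T cells (ENSMUSG00000034855, chromosome 5, 92346638 to 92348889, minus strand), was at 0.392, 0.227 and 0.512 CPM in control basal 1, 2 and 3 and at 211, 159.8 and 263 CPM in control EAE 1, 2 and 3 (log2 fold change 9.11, SE 0.31). Ccl2, which attracts monocytes through Ccr2, went from 0.131, 0 and 0.114 CPM to 44.2, 32.7 and 51.1 CPM, and Ccl6 and Ccl9 from 1.56 ± 0.288 and 1.24 ± 0.261 to 117 ± 14.3 and 68.4 ± 6.43 CPM. The 2 ligands that fell were Cx3cl1, the neuronal signal to microglia (-0.58, adjusted p = 0.0049), and Cxcl14 (-0.47, adjusted p = 0.011). Of the receptors 11 of 14 rose, among them Ccr1 (8.19) and Cxcr6 (7.33), and the decoy receptor genes Ackr1, Ackr3 and Ackr4 did not pass.

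Cytokine genes rose in 14 of 17. Il1b (ENSMUSG00000027398, chromosome 2, 129364570 to 129371139, minus strand), the interleukin 1 beta gene, went from 0.0653, 0.114 and 0.0568 CPM to 62.7, 64.5 and 103 CPM. Tnf had 2 counts at baseline and was at 17.9, 12.5 and 10.5 CPM in EAE, a ratio of 345 (95% exact Poisson interval 95.5 to 2848). Il6 was at 0.196, 0.0568 and 0 CPM at baseline and at 0.829, 1.94 and 6.47 CPM in control EAE 1, 2 and 3, above baseline in each but uneven among the EAE libraries (log2 fold change 5.15, SE 1.03, adjusted p = 0.003). Il1a and Tgfb1 rose by 6.43 and 3.48. Il18, Il33 and Il34 did not pass, at -0.01, 0.08 and -0.21 on the log2 scale. Cytokine receptors rose in 23 of 25. The interleukin 1 antagonist gene Il1rn had 1 basal count and was at 57.8, 58.5 and 90.5 CPM in EAE, a ratio of 3483 (95% exact Poisson interval 625 to 137578). Il2rb and Il4ra rose by 6.86 and 3.92. Il1rap and Lifr were the 2 receptors that did not pass.

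Innate sensing genes rose alike. NF-kB subunits and feedback genes rose in 14 of 15, with Bcl3 from 0.587, 0.852 and 1.36 CPM to 38.7, 37.7 and 55 CPM and the ubiquitin-editing brake gene Tnfaip3 from 3.81 ± 0.689 to 55.8 ± 11.2 CPM. Toll-like receptors and adaptors rose in 14 of 15, where Tlr5 did not pass. Tlr2 went from 2.66 ± 0.482 to 179 ± 39.2 CPM and its coreceptor gene Cd14 from 2.91 ± 0.483 to 90.5 ± 6.87 CPM. All 17 inflammasome and cell death genes rose, with Casp4, Naip2, Naip5 and Casp8 at 6.56, 5.83, 4.50 and 4.12 on the log2 scale. Complement genes rose in 15 of 16. C3, the central component, went from 43.3, 55.4 and 51 CPM to 1683, 1384 and 998 CPM, the receptor genes C3ar1 and C5ar1 rose by 6.37 and 6.47, and the inhibitor gene Serping1 by 5.16. Cd55, which speeds the decay of complement convertases, was the one that fell (11.5, 8.98 and 7.45 CPM to 3.85, 5.96 and 5.15 CPM, log2 fold change -0.90, adjusted p = 0.011). C3 and Cd55 are named because they complete these counts.

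Phagocyte receptors and enzymes gave some of the largest steps. All 20 Fc, lectin and paired receptors rose, with a median log2 fold change of 7.13 (6.80 with bounds). Clec4e, a receptor for mycobacterial glycolipid and dead cells, had 1 basal count and was at 105, 71.9 and 73 CPM in EAE. Of macrophage enzymes 13 of 14 rose. The enzymes that compete for arginine rose together, Nos2, the inducible nitric oxide synthase, from 0.457, 0.738 and 0.625 CPM to 106, 51.5 and 118 CPM, and Arg1 as given above. Acod1, which makes itaconate, went from 0.103 ± 0.0802 to 155 ± 35.9 CPM. The oxidase subunit gene Ncf1 rose by 4.53, while the superoxide dismutase gene Sod2 was at 184 ± 5.83 and 184 ± 14.4 CPM and did not pass. Coagulation genes rose in 13 of 15, including the urokinase receptor gene Plaur (5.34).

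**Figure D3:**
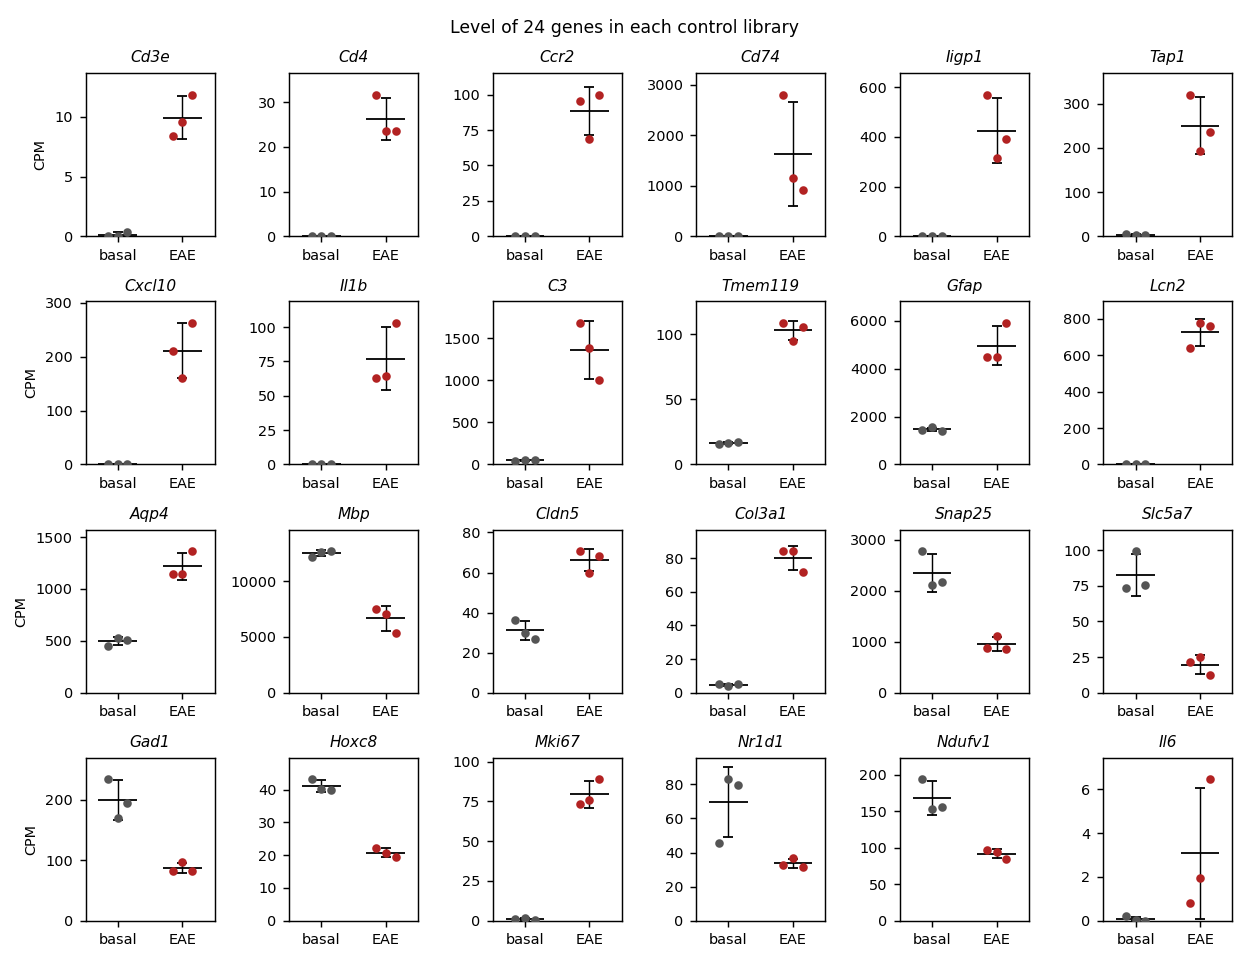
Level in CPM of 24 genes in each of the 3 control basal (grey) and 3 control EAE (red) libraries, in the order 1 to 3 from left to right, with the mean as a line and 1 SD as the bar, and a linear axis from 0 in each panel. In each panel the points of basal and EAE do not overlap. Cd74 and C3 are highest in control EAE 1 and Il6 in control EAE 3, and Nr1d1 is lowest in control basal 1 among the basal libraries.

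Vascular genes rose in part. Adhesion genes of activated endothelium rose in 11 of 13, with Icam1 from 1.7, 1.53 and 1.59 CPM to 117, 73.2 and 78.2 CPM and Vcam1, the ligand of the T cell integrin VLA-4, from 25.6, 22.4 and 20.7 to 147, 117 and 105 CPM. Of genes of blood-brain barrier junctions and transporters, 8 of 16 rose and 2 fell. Cldn5, the main claudin of brain endothelium (ENSMUSG00000041378, chromosome 16, 18776847 to 18778262, plus strand), rose from 36.5, 29.8 and 26.8 to 70.8, 59.9 and 68.1 CPM (log2 fold change 1.09, SE 0.14), as did Cdh5 (1.34), Lsr (2.19) and Slc16a1 (1.21). The genes that fell were Mfsd2a (-0.46), which transports lipids and limits transcytosis, and Spock2 (-0.98). Of these 16, 1 rose and none fell in the fit of all 12 libraries. Pericyte and smooth muscle genes rose in 2 of 10, a share near that of all genes, and in 6 of 10 without control basal 1 and 4 of 10 without control basal 2. Anpep, which myeloid cells also express, went from 2.37 ± 0.289 to 102 ± 32.3 CPM. Pdgfrb rose by 0.66, a call that ended without control EAE 2 or 3 (adjusted p = 0.062 and 0.074), and Rgs5, the G protein regulator of pericytes, was at 115, 106 and 97.7 CPM and 124, 119 and 146 CPM and did not pass (adjusted p = 0.095).

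Matrix genes rose in the main. Collagens rose in 15 of 18, with Col3a1, a fibrillar collagen of fibroblasts (ENSMUSG00000026043, chromosome 1, 45311538 to 45349706, plus strand), from 4.96, 3.86 and 5.0 CPM to 84.4, 84.4 and 72 CPM, and Col1a1 and Col1a2 higher by 3.57 and 1.81. Col25a1, a transmembrane collagen of neurons, was the one that fell (-0.76). In the fibroblast and meninges list 10 of 14 rose and only Ptgds fell. Metalloprotease and inhibitor genes rose in 10 of 17 and 2 fell, Mmp15 (-0.65) and Mmp17 (-1.03), while 4 fell without control basal 1. In the fit of all 12 libraries 9 collagen and 6 fibroblast and meninges genes rose. Mmp12, the macrophage elastase gene, had 0 basal counts, was at 32.9, 37.7 and 61.3 CPM in EAE and was at least 741-fold higher. Mmp19, Mmp14 and Adam8 rose by 3.72, 3.36 and 3.08. Proteoglycans and glycoproteins of scar and perineuronal net moved in both directions, 9 of 19 up and 4 down, the falls near the share of all genes. Tnc, Thbs1, Cd44 and Fn1 rose by 4.58, 3.58, 3.67 and 5.26. The 4 that fell were the perineuronal net genes Acan (-1.51), Bcan (-1.23), Hapln4 (-1.12) and Hapln1 (-1.02).

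Microglial genes rose, including several that mark the resting state. Of the homeostatic list 15 of 16 rose (median 2.57), Slc2a5 being the exception. Tmem119 (ENSMUSG00000054675, chromosome 5, 113793729 to 113800516, minus strand), a microglial surface protein, was at 15.5, 16.1 and 17.3 CPM in control basal 1, 2 and 3 and at 109, 94.9 and 105 CPM in control EAE 1, 2 and 3. Its log2 fold change was 2.66 (SE 0.12). P2ry12, the purine receptor that guides microglial processes, went from 21.7, 19.2 and 18 to 54, 50.6 and 63.7 CPM (log2 fold change 1.51, SE 0.14). Cx3cr1 and Olfml3 rose by 2.99 and 3.29. The list also holds Gpr84, a fatty acid receptor gene that inflammation induces, at 0.131, 0.568 and 0.284 CPM at baseline and 26.4, 24.9 and 24.7 CPM in EAE. Fcrls differed among the EAE mice, with 11.2, 9.77 and 8.98 CPM at baseline and 7.94, 54.2 and 47.8 CPM in control EAE 1, 2 and 3, so that control EAE 1 lay under the basal libraries and the others well above them. Its call (adjusted p = 0.019) ended without control EAE 2 or without control EAE 3 (0.079 and 0.077). Genes of disease-associated microglia and phagocytes rose in 17 of 18 (median 3.61), and macrophages express many of them too. Apoe did not pass, at 1665, 1346 and 1387 CPM and 4101, 2469 and 1277 CPM, where control EAE 3 lay under the basal libraries and control EAE 1 and 2 above them. Genes of perivascular and meningeal macrophages rose in 6 of 7, with Mrc1 from 1.14 ± 0.342 to 7.61 ± 1.35 CPM and Stab1 from 11.5 ± 2.82 to 184 ± 70.8 CPM, while Cd163 did not pass.

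Astrocyte genes moved in both directions. Reactive genes rose in 20 of 21 (median 3.62). Gfap (ENSMUSG00000020932, chromosome 11, 102887336 to 102900912, minus strand) went from 1458, 1547 and 1405 CPM to 4511, 4480.4 and 5929 CPM (log2 fold change 1.76, SE 0.18), and Serpina3n from 57, 58.1 and 53.3 CPM to 1623, 2154 and 2119.8 CPM. Steap4, a metal reductase gene, and Cp, the ferroxidase ceruloplasmin, rose by 9.28 and 4.32. Of genes that mark astrocytes at rest, 5 of 20 rose, near the share of all genes, and 9 fell. The water channel gene Aqp4 of the astrocyte endfeet went from 452, 531 and 503 to 1143, 1142 and 1368 CPM. Ntsr2 fell from 284, 252 and 235 CPM to 81, 108 and 80.1 CPM and the receptor gene Fgfr3 from 279, 340.1 and 324 to 160.2, 148 and 129 CPM. The other members that rose were Gfap, which both lists hold, the lineage factor gene Sox9, the glutamate transporter gene Slc1a3 and Aldh1l1, and the others that fell included Cldn10, the connexin gene Gjb6, S100b, the GABA transporter gene Slc6a11, Aldoc and the glutamine synthetase gene Glul. The potassium channel gene Kcnj10 was at 920.4 ± 158 and 919 ± 99.8 CPM and did not pass, and neither did the connexin gene Gja1 or the transporter gene Slc1a2.

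Myelin genes fell in part. Of the lineage list, 13 of 22 oligodendrocyte genes fell (median -0.45), and 8 of 22 without control EAE 3. Mbp, myelin basic protein, went from 12173, 12652 and 12721 CPM in control basal 1, 2 and 3 to 7525, 7084 and 5382 CPM in control EAE 1, 2 and 3, lowest in control EAE 3 (log2 fold change -0.91, SE 0.20, adjusted p = 0.0045). Mog, a surface protein of myelin (ENSMUSG00000076439, chromosome 17, 37010743 to 37023398, minus strand), went from 241 ± 15 to 149.6 ± 21.7 CPM, and the lipid synthesis genes Fa2h and Ugt8a fell by 0.75 and 0.62 on the log2 scale. The transcription factor genes of the lineage did not pass. Olig2 was at 69.2 ± 13.9 and 69 ± 3.29 CPM, Sox10 at 117 ± 14.6 and 122 ± 5.78 CPM, and Myrf at 232 ± 74.3 and 227 ± 14.6 CPM. Trf, the transferrin gene, was the one that rose (1.32). In the fit of all 12 libraries 2 of the 22 fell. Of genes of precursors and newly formed cells, 5 of 14 rose, with Sox6, Sox4, Tcf7l2 and Vcan at 1.12, 1.12, 1.23 and 1.16, and Bcas1 fell. Ependymal genes rose in 2 of 16, under the share of all genes.

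Neuronal genes fell in each of the transmitter lists. Of the shared genes, 15 of 17 fell and none rose (median -1.09). The synaptic membrane gene Snap25 (ENSMUSG00000027273, chromosome 2, 136713453 to 136782428, plus strand) went from 2788, 2113 and 2172 CPM to 870.3, 1107 and 864 CPM (log2 fold change -1.32, SE 0.18), and the neurofilament gene Nefm from 1710.4, 2307 and 2023 CPM to 820.2, 933 and 454 CPM. Eno2, Ina and Elavl4 fell by 1.09, 1.10 and 1.01. Map2 and Snhg11 did not pass. Synaptic genes fell in 19 of 26, with Sv2b, Rab3a, Vamp1 and Cplx1 lower by 1.39, 1.25, 1.20 and 1.16 on the log2 scale.

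Motor neuron genes had the lowest median of the lists with at least 10 tested members, -1.47, and 14 of 17 fell. Slc5a7, which takes up choline for acetylcholine synthesis (ENSMUSG00000023945, chromosome 17, 54273590 to 54299034, minus strand), went from 73.2, 99.6 and 75.4 CPM to 21.4, 25.1 and 12.1 CPM (log2 fold change -2.08, SE 0.25, adjusted p = 0.00014). Chat, choline acetyltransferase, went from 20.7, 31.4 and 24.2 to 9.77, 12.5 and 5.21 CPM and the acetylcholinesterase gene Ache from 291 ± 13.1 to 155 ± 9.92 CPM. Chrna2, a nicotinic receptor subunit of Renshaw cells, fell by 2.55. In each, every EAE library was below the basal libraries, and control EAE 3 was the lowest for Slc5a7 and Chat. Spp1, osteopontin, which macrophages also make, was the one that rose, from 127 ± 30.8 to 485 ± 121 CPM.

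GABA and glycine neuron genes fell in 11 of 12. Gad1, which makes GABA, went from 235, 169.6 and 194 to 82.7, 97.4 and 83.1 CPM and the vesicular transporter gene Slc32a1 from 225, 227 and 223 to 91.5, 112 and 93.1 CPM. Gjd2, a connexin gene of electrical synapses, fell by 1.36. Glutamate neuron genes fell in 6 of 10, with the vesicular transporter gene Slc17a6 from 279.7, 246 and 239.8 CPM to 99.2, 131 and 103 CPM. The count was 3 in the fit of the 10 libraries other than cKO basal 2 and cKO EAE 3, and 1 in the fit of all 12. The dorsal horn factor genes Prrxl1, Ebf2 and Tlx3 fell by 0.94, 0.77 and 1.16, where Tlx3 fell by 0.70 without control basal 1 and missed the threshold without control EAE 1 (adjusted p = 0.053), and Ebf2 missed it without control EAE 3 (0.051). Neuropeptide and dense-core vesicle genes fell in 14 of 25. The granin genes Chga and Chgb fell by 1.45 and 1.30, the convertase gene Pcsk2 by 1.18, and Calca, which motor and sensory neurons make, went from 54.8, 36.6 and 29 CPM to 11.6, 9.42 and 5.09 CPM. Crh was the one peptide gene that rose (0.81). Of genes of dorsal root ganglion neurons 4 of 6 fell, and 2 without control EAE 2. The median of the neuropeptide list was -0.98, and -0.54 without control basal 1.

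Receptor and channel genes fell in the main. GABA and glycine receptor subunits fell in 13 of 18, with the glycine receptor gene Glrb at -1.35 and Gabra5 at -1.17. Glutamate receptor subunits fell in 17 of 22, led by Grin2c (-1.52), which astrocytes express too. Of nicotinic and serotonin receptors 10 of 17 fell and 1 rose, Htr2b, with 3 basal counts and 2.61, 3.22 and 1.8 CPM in EAE, a ratio of 42.8 (95% exact Poisson interval 14.6 to 207). Potassium channel genes fell in 24 of 33 (median -0.89), where Kcnab1, a channel beta subunit, went from 160.5, 146 and 139 CPM to 49.5, 64.2 and 46.9 CPM. Sodium, calcium and HCN channel genes fell in 14 of 28, and in 23 without control basal 1. Scn4b, a sodium channel subunit of fast-firing neurons, fell by 1.45, and Cacnb3 was the one that rose (0.35). Of dopamine receptor and signalling genes 6 of 11 fell, and 3 without control EAE 2. Ddc, aromatic amino acid decarboxylase, went from 18.1, 17 and 15.3 to 6.58, 4.32 and 4.01 CPM and Ppp1r1b fell by 1.18. Th, tyrosine hydroxylase, fell by 0.92, a call that ended without control EAE 2 or 3 (adjusted p = 0.055 and 0.051).

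Hox genes, which set position along the cord, fell in 20 of 26 with none higher (median -0.85). Hoxc8 (ENSMUSG00000001657, chromosome 15, 102990607 to 102994111, plus strand) went from 43.3, 40.3 and 40 CPM to 22.1, 20.7 and 19.5 CPM (log2 fold change -0.99, SE 0.12, adjusted p = 0.00013), without overlap. Hoxb5, Hoxc6 and Hoxc10 fell by 1.13, 1.07 and 0.86. The 6 that did not pass, Hoxa2, Hoxb2, Hoxb3, Hoxb4, Hoxd3 and Hoxd4, are from the anterior end of the clusters. The levels of the cord that were dissected on each side were not given, and their part in these values was not tested.

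The counts of falling genes depended on the libraries that set the spread. With all 12 libraries in 1 fit, 8 of 17 pan-neuronal, 9 of 26 synaptic, 5 of 17 motor neuron, 4 of 12 GABA and glycine neuron, 10 of 33 potassium channel and 7 of 26 Hox genes fell. In the same fit 3 of 22 glutamate receptor, 7 of 18 GABA and glycine receptor, 4 of 17 nicotinic and serotonin receptor, 6 of 28 sodium, calcium and HCN channel, 2 of 11 dopamine and 5 of 25 neuropeptide and vesicle genes fell. Against a minimum of a 2-fold change 8 motor neuron genes passed, and 0 pan-neuronal, synaptic or Hox genes did.

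**Figure D4:**
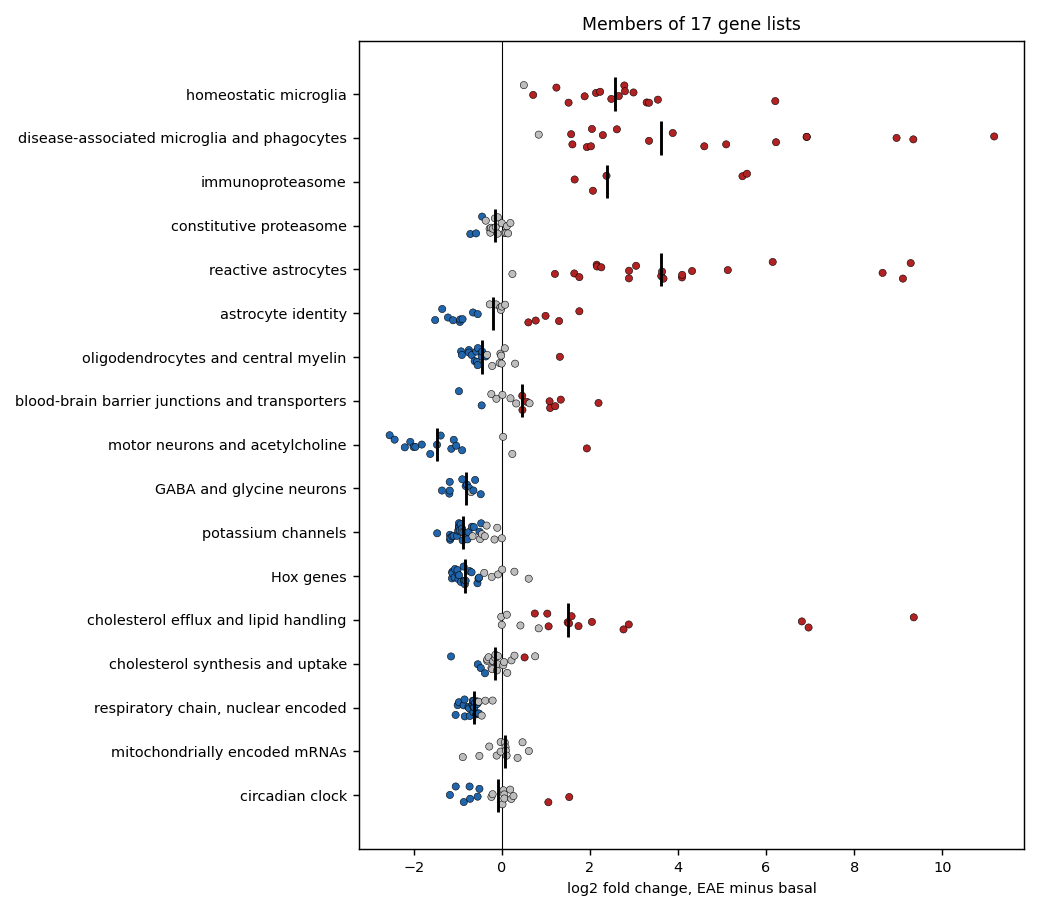
Log2 fold change (EAE minus basal) of each tested member of 17 gene lists, with genes that rose in red, genes that fell in blue, the rest in grey and the list median as a black bar. Immunoproteasome and reactive astrocyte genes lie to the right, constitutive proteasome and mitochondrially encoded genes around 0, and neuronal, Hox and respiratory chain genes to the left, with astrocyte identity genes on both sides.

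Proliferation genes rose in 26 of 27 (median 3.23), E2f1 being the exception. Mki67 (ENSMUSG00000031004, chromosome 7, 135689784 to 135716361, minus strand) went from 1.04, 1.59 and 0.455 CPM to 73.2, 76.1 and 89.1 CPM (log2 fold change 6.26, SE 0.29), and Top2a, Ccnb1 and Cdk1 rose by 6.34, 6.59 and 4.06. Immediate early genes rose in 12 of 20. Junb, Fosl2, Atf3 and Egr2, which myeloid cells and glia induce, rose by 2.98, 2.88, 4.93 and 6.13, while the neuronal activity genes Arc, Npas4 and Fosb did not pass. Among stress genes, heat shock genes rose in 3 of 13, near the share of all genes, and fell in 6. In the fit of all 12 libraries 0 of them rose and 1 fell. Hsp90aa1 and Hsph1 fell by 1.02 and 1.13, and Hspb6 and Hspb8 rose by 1.20 and 0.61. Cryab, alpha-B crystallin, was at 347, 163 and 188 CPM and 138, 153 and 122 CPM (log2 fold change -0.76, adjusted p = 0.038). Its fall was -0.35 without control basal 1, the highest basal library, and the call ended without any of the EAE libraries (adjusted p = 0.070 to 0.13). Leaving out 1 EAE library left 2 or 3 heat shock genes lower. Genes of the unfolded protein and integrated stress response rose in 8 of 18 (5 without control basal 2 or without control EAE 3) and fell in 4, the falls near the share of all genes. The chaperone and quality control genes Pdia4 and Edem1 and the factor gene Xbp1 rose by 1.38, 2.09 and 1.05, while the asparagine synthetase gene Asns fell by 1.14.

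Metabolic genes moved in several directions. Nuclear genes of the respiratory chain fell in 23 of 27 (median -0.64), and in 15 and 14 without control EAE 2 and without control EAE 3. Ndufv1, a complex I subunit, went from 194, 153 and 157 CPM to 97, 94.1 and 84.9 CPM, and Ndufb8 and Sdha fell by 1.00 and 0.67. These are short genes in the main, and control basal 1 was the highest library in the summed list (7834, 5593 and 5765 CPM in control basal 1, 2 and 3, 4295, 4204 and 3986 CPM in control EAE 1, 2 and 3). Without control basal 1, 23 fell with a median of -0.50, in a fit that called 9513 genes against 7829. The part of that library in the fall was not tested. With all 12 libraries in 1 fit 2 of 27 fell and 0 ribosomal protein genes rose. Of the 13 mitochondrially encoded mRNAs none passed with edgeR (median 0.06, 1 at an unadjusted p below 0.05), while DESeq2 called 1 and limma voom 2, and mt-Co1 was at 19104, 15280.2 and 14966 CPM and 17759.5, 19942 and 25437 CPM. Ribosomal protein genes rose in 12 of 30, in 29 without control basal 1 and in 7 without control basal 2, control basal 3 or control EAE 1. They took 1.51% of counts in control basal 1 against 0.905 and 0.938% in control basal 2 and 3. In the EAE libraries they took 1.51 to 1.80%. Control basal 1 was also the basal library with the smaller share of long transcripts. The part of this in the change was not tested beyond a fit with offsets for gene length, in which 23 rose, with a median of 0.60. Rplp0 rose by 1.52.

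Of hypoxia and glycolysis genes 8 of 21 rose and 4 fell, the falls near the share of all genes. Those with the smallest p were Slc16a3, the lactate exporter of glycolytic cells, Hk2, Hif1a and Ldha, higher by 5.13, 4.63, 1.91 and 1.69. The 4 that fell were Ldhb, Pfkm, Aldoc, the aldolase of astrocytes, and Slc2a3, the glucose transporter of neurons. Cholesterol genes differed between efflux and synthesis. Efflux and lipid handling genes rose in 13 of 18 (median 1.51), with Abca1 from 40, 51 and 52.5 to 383, 357 and 234 CPM, the lipid droplet gene Plin2 higher by 2.88, and the scavenger receptor genes Msr1 and Cd36 by 9.35 and 6.96. Of synthesis genes 1 of 22 rose and 4 fell, the falls near the share of all genes, and the median was -0.15. The number that fell was 1 or 2 when control basal 2, control basal 3 or any EAE library was left out. Fatty acid genes rose in 1 and fell in 4 of 16, the falls near the share of all genes. Only 2 fell when control basal 2 or 3 or control EAE 2 or 3 was left out. Iron genes rose in 8 of 13 and none fell. Hmox1, which breaks down heme, and the macrophage metal pump gene Slc11a1 rose by 4.41 and 5.30.

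Clock genes changed in part. Of 18 tested, 7 fell, the rhythm genes Nr1d2 (-0.87), Hlf (-0.73), Dbp, Nr1d1, Ciart, Tef and Cry2, and 2 rose, Nfil3 (1.53) and Bhlhe40 (1.05), which cytokines also induce. Nr1d1 was at 45.7, 83.1 and 79.6 CPM and 32.9, 36.5 and 31.3 CPM. Arntl, Clock, Per1 and Per2 did not pass. The hour of tissue collection was not given, and its part was not tested. Glucocorticoid target genes rose in 4 and fell in 4 of 16, near the shares of all genes. Hsd11b1, which regenerates active glucocorticoid, fell from 35.9 ± 2.38 to 13.5 ± 3.03 CPM. Of trophic factors Fgf2 and Clcf1 rose by 2.57 and 1.92.

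The 3 EAE mice did not carry the response in equal parts. Of the 692 genes with the largest rises, 60.1% were highest in control EAE 1, 6.5% in control EAE 2 and 33.4% in control EAE 3. Over all genes tested the shares were 38.1, 29.9 and 32.0%, so that control EAE 3 was near its share of all genes. The summed MHC class II level was 7741, 3726 and 3054 CPM in control EAE 1, 2 and 3, against 108, 72.3 and 57.6 CPM at baseline. The disease-associated microglia and phagocyte list was also highest in control EAE 1, at 13044, 9886 and 7681 CPM, and so was the lipid handling list, at 6044, 4086 and 2643 CPM. T cell genes were not, with 218, 214 and 252 CPM, highest in control EAE 3 by 1.18 times over the lowest. Reactive astrocyte genes were at 9240.2, 9829 and 11898 CPM and cell cycle genes at 531, 558 and 700.3 CPM, again highest in control EAE 3. In control EAE 2, 60.1% of the 814 genes that fell at least 2-fold were at their highest of the EAE libraries, and in control EAE 3 59.0% were at their lowest. Over all genes tested these shares were 29.9% and 37.8%. So control EAE 2 was most often the EAE library nearest to baseline. Control EAE 1 had the highest sums of the MHC class II, monocyte, phagocyte and lipid handling lists. Single myeloid genes differed, as Arg1 and Lyz2 were highest in control EAE 1 and Ccr2, Plac8, Clec7a and Ccl6 in control EAE 3. Control EAE 3 had the highest sum of reactive astrocyte genes and was most often the lowest among genes that fell. These are descriptions of 3 mice with no test.

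**Figure D5:**
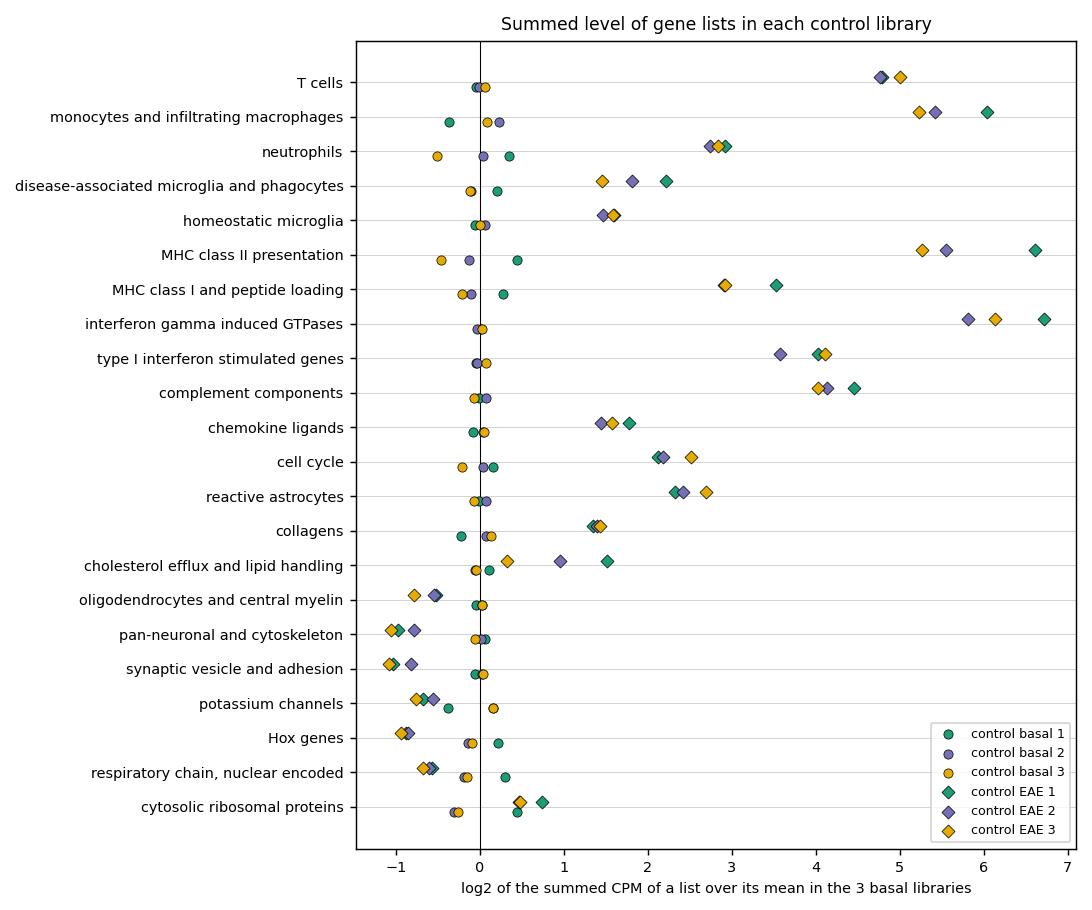
Log2 of the summed CPM of 22 gene lists in each control library over the mean of the 3 basal libraries, with circles for control basal and diamonds for control EAE libraries and a colour for each library number. The EAE diamonds of most lists lie apart from the basal circles, control EAE 1 lies farthest right for MHC class II, monocyte, phagocyte and lipid handling genes, and control basal 1 lies beside control EAE 2 and 3 for ribosomal protein genes.

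Among called genes the largest spread over the EAE libraries, besides Fcrls and Il6, was in Scgb3a1, Ube2n-ps1, Cxcl3, Itih4, Sele and Cxcl2. Sele, E-selectin of inflamed endothelium, had 0 basal counts and was at 3.73, 11.4 and 17.1 CPM in control EAE 1, 2 and 3, at least 181-fold above baseline on average. The neutrophil chemokine genes Cxcl2 and Cxcl3 were at 2.49, 3.46 and 11.5 CPM and 1.6, 7.05 and 9.11 CPM. Il6, Sele, Cxcl2, Cxcl3 and Itih4, an inhibitor chain of acute phase serum, shared the order with control EAE 3 highest and control EAE 1 lowest, the reverse of the MHC class II order. Scgb3a1 was at 1.3, 0.608 and 7.43 CPM, and its log2 fold change of 4.41 was 2.72 without control EAE 3. The pseudogene Ube2n-ps1 lost its call when any library but control EAE 1 was left out, with log2 fold changes of 0.79 to 1.97.

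Noncoding and little studied transcripts took part. AW112010, a transcript induced by interferon in immune cells (ENSMUSG00000075010, chromosome 19, 11047617 to 11050566, minus strand), went from 1.31, 0.966 and 0.966 CPM to 144, 70.5 and 70.5 CPM, and AU020206 from 6.79, 7.55 and 7.56 CPM to 284, 191 and 201 CPM. BE692007 went from 0.103 ± 0.0802 to 12.2 ± 2.85 CPM, and AI662270 from 1 basal count to 6.1 ± 1.82 CPM. Ifi30, which the table lists as a processed transcript though it encodes a lysosomal thiol reductase, rose by 6.38. The largest falls were in Pantr1 (-1.14), Peg13 (-1.02), Dbpht2 (-0.96), Lhx1os (-0.77) and Tmem250-ps (-0.66). Peg13, an imprinted transcript of neurons, went from 314, 469.9 and 476 CPM to 189.7, 239.5 and 193 CPM, without overlap. Lhx1os overlapped between the sides and lost its call without control EAE 1 or 3 or control basal 1 or 3 (adjusted p = 0.078 to 0.15).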

How the data were processed

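RNA from spinal cord was sequenced, and the authors deposited 1 table of read counts per gene with Ensembl identifiers, symbols and positions. Per the submitters' processing notes, HISAT2 2.0.5, featureCounts 1.5.0-p3 and mm10 were used. Not given in the sources used here are strand setting, treatment of reads with several matches, and annotation release. The deposited counts of the 3 control basal and 3 control EAE libraries were fitted with edgeR 4.0.16 (TMM, filterByExpr, quasi-likelihood F test, no covariate, R 4.3.3). The p-values were adjusted by Benjamini-Hochberg over all fitted genes, those of X and Y included. Since 593 genes of X and Y stayed in the fit and the adjustment, an alternative left them out. CPM values were computed with TMM library sizes. The Poisson intervals of ratios cover the counting error of the basal counts alone, with the EAE counts taken as fixed. Floors of 3 counts likewise cover counting error only. No column of per-sample values went unused (0). The members and the 77 gene lists were chosen with earlier results of these data known, and a list got no test of its own. Of list symbols, 1236 of 1237 were found in the table.

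Genes were named by a rule: the 10 largest rises (basal mean of at least 1 CPM), 10 gains in CPM, 12 falls (basal mean of at least 5 CPM) and 8 losses in CPM, up to 4 called members of each list by p, defining members, the 8 most variable called genes in EAE, the 8 smallest p-values, and 5 noncoding rises and falls. Some genes that the rule picks are not reported here. Other members named to complete a count or as members that did not pass, such as C3, Cd55, Olig2 and Apoe, were chosen after their values were seen. Replicates are samples the labels call biological. No pair differed by as little as sampling noise (chi-square per gene of 3.45 or more). On simulated counts over 16804 genes, the test recovered 84 to 100% of 50 genes per fold size at log2 changes of -2, -1, 1 and 2, with 9 false calls. The changed genes were drawn from those above 5 CPM at baseline, and all others were left unchanged. In the data 45.3% of genes tested changed, many from lower levels, so the simulation does not give the recovery or the false calls of this comparison. Alternatives covered the scaling, the filter, the test, the libraries fitted, gene length and a replicate block.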

Additional observations from a re-analysis of the deposited data

How the results depend on the processing

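The main test called 7829 genes (4233 higher, 3596 lower, 3413 at least 2-fold). With all 12 libraries in 1 fit it called 3065 (2182 higher, 883 lower), of which 3040 were shared, and 71.2% of calls were higher against 54.1%. A test against a minimum of a 2-fold change called 1936 (1850 higher, 86 lower), fewer by its construction. Why the fit of 12 libraries gave fewer calls was not tested further than by a fit of the 10 libraries other than cKO basal 2 and cKO EAE 3, which called 8342. Leaving out 1 library gave 6146 to 9513 changed genes, 3622 to 5090 higher, 2512 to 4423 lower and 3178 to 3610 at least 2-fold. Other scalings, filters, tests and gene length offsets gave 7674 to 10296. Fitted with the replicate number as a replicate block, 7659 genes passed, and calls lost under it included those of Lhx1os and Tm7sf2. Deviations of same-numbered libraries had correlations of 0.083, 0.031 and 0.045, and those of unlike-numbered libraries -0.10 to 0.069. Whether the numbers pair the mice or mark a batch cannot be told from these values. Of the 330 named genes set against the alternatives, none reversed, 73 lost their call with 12 libraries and 115 under the 2-fold minimum. Depth limits genes near 0.0643 CPM, such as Il17a and Csf2.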

Other observations

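S100 genes, which encode small calcium-binding proteins, rose in 8 of 10 and fell in 1. S100a11 went from 2.28 ± 0.888 to 64.3 ± 8.6 CPM and S100a6 from 8.29 ± 3.02 to 97.6 ± 9.31 CPM (SD, n = 3). S100a8, an alarmin of neutrophils and monocytes, was at 5.35, 2.33 and 0.512 CPM in control basal 1, 2 and 3 and at 33.1, 36.4 and 42.7 CPM in control EAE 1, 2 and 3. S100a4 had 3 basal counts and was at 2.43, 1.7 and 1.86 CPM in EAE, a ratio of 33.7 (95% exact Poisson interval 11.5 to 163). The astrocyte and oligodendrocyte gene S100b was the member that fell. Of the 10, 3 rose in the fit of all 12 libraries. Of trophic factor and receptor genes 4 of 17 rose, near the share of all genes, and 5 fell (Bdnf, Fgf1, Ntrk2, Ret and Cntfr). Without control EAE 1 or without control EAE 2, 3 fell. Egfr and Hbegf, a receptor and its ligand, rose by 0.98 and 1.18 on the log2 scale.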
